A study of Mus musculus with 16 samples.

Results

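Mitochondrial ribosomal proteins are the protein part of the ribosome that works inside mitochondria. Their genes were followed in mouse dendritic cells exposed to Lactobacillus acidophilus NCFM, a lactic acid bacterium used in probiotics. Members were all probe sets that name a single gene whose symbol is Mrpl or Mrps followed by a number, with pseudogenes left out. This gave 156 probe sets for 76 genes, out of 18193 genes measured by a probe set that names 1 gene. The gene table lists 78 such genes, and Mrpl30 and Mrpl53 have no probe set that names them alone. Where a gene has several probe sets, which holds for 42 members, the one with the highest mean over all arrays stands for it.

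The cells were grown for days from the marrow of wild-type C57BL/6 mice with the growth factor GM-CSF, and the non-adherent immature cells were plated in fresh GM-CSF medium. Cells were left with NCFM (10 µg/ml) for 4, 10 or 18 h, and each time has control cells without it. There are 16 single-channel arrays of total RNA in 6 groups, with 3 NCFM arrays at each time and with 3, 2 and 2 control arrays at 4, 10 and 18 h. The labels do not say whether replicates are separate mice or cultures, and all p-values therefore speak of the spread between these arrays. The number of arrays limits the precision.

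Mitochondria keep a small genome of their own, and a dedicated ribosome translates its few messages into core subunits of the respiratory chain. All of this ribosome's proteins are encoded in the nucleus, made in the cytosol and imported. About as many of them are relatives of bacterial ribosomal proteins as are additions found only in mitochondria, and they are built with mitochondrially encoded rRNA into a large (39S) and a small (28S) subunit. In dendritic cells, sensing of microbes is known to shift energy metabolism from the respiratory chain towards glycolysis. Of the 76 genes, 49 belong to the large subunit, 28 of them with a bacterial relative and 21 specific to mitochondria. The small subunit has 27, of which 16 have a bacterial relative and 11 do not, with Mrps36 counted among the latter by its symbol. Mrps18a and Mrps30 are counted with the large subunit, where their proteins lie in spite of their names.

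Some arrays stood apart. The 6 arrays numbered 1 had Xist, an RNA that coats the silenced X chromosome, at 7.94 to 8.53 on the log2 scale, against 10.97 to 12.9 on the other 10 arrays, and the Y-linked Eif2s3y at 9.81 to 10.26 against 5.98 to 6.19. Arrays of a group thus differ in markers of the cells' sex, and their spread is not technical alone. NCFM replicate 3 at 4 h was low for the members, as given below. The 11 dendritic cell markers had a median level of 10.81 to 12.64 per array on the log2 scale. Lists of mast cell and basophil (8 genes), lymphocyte (6) and erythroid (4) markers had median differences between -0.02 and 0.08 at every time. The values below are intensities as deposited, which by their range and their near-equal array medians are linear and already normalized between arrays. They are compared between arrays for 1 probe set at a time, never between probe sets.

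Mitochondrial ribosomal protein genes had lower levels with NCFM than in control cells of the same time for 27 to 31 of 76 members by test, and fitted differences of most others were below 0 as well. A gene was called when limma's adjusted p, over all 18193 genes, was under 0.05. At 4 h 27 of 76 members (35.5%) were called lower and none higher, against 13.1% of all genes called lower and 5.27% higher. At 10 h the count was 31 lower (40.8%) and none higher, against 16.5% and 8.21% of all genes. At 18 h 31 were lower and 1, Mrpl1, was higher, against 16.3% and 7.4% of all genes. At an unadjusted p under 0.05 by limma, 1, 0 and 3 members were higher at 4, 10 and 18 h, the last count including Mrpl1. Lower by that measure were 52, 49 and 42, where 31.1%, 37.0% and 35.5% of all genes passed in either direction. The median log2 difference over the 76 members was -0.55 at 4 h, -0.60 at 10 h and -0.56 at 18 h, a fall of 1.47, 1.52 and 1.47 fold, while the median over all genes was -0.01, 0.01 and 0.00. Fitted differences were below 0 for 74, 68 and 66 members.

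The arrays themselves show the same shift. All NCFM arrays lay below all control arrays of the same time for 57 members at 4 h, 55 at 10 h and 56 at 18 h, against 22.7%, 28.9% and 26.1% of all genes. All NCFM arrays lay above the controls for 0 members at 4 h, 2 at 10 h (Mrpl27 and Mrpl39) and 5 at 18 h (Mrpl1, Mrpl13, Mrpl14, Mrpl27 and Mrps18c). For this direction the share of all genes was not counted. All 76 members are above the level at which dim genes are set aside, where calls are more frequent among all genes. With dim genes left out, 40, 40 and 34 members were called lower at 4, 10 and 18 h, against 23.4%, 28.9% and 29.1% of the 9929 genes that remain. The median log2 difference of these 9929 genes was itself below 0, at -0.16, -0.19 and -0.17. Relative to it the members' median was -0.39, -0.42 and -0.39, a smaller shift than against all genes. In RNA from mixed cells, fewer cells of a type and less RNA per cell cannot be told apart.

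**Figure D1:**
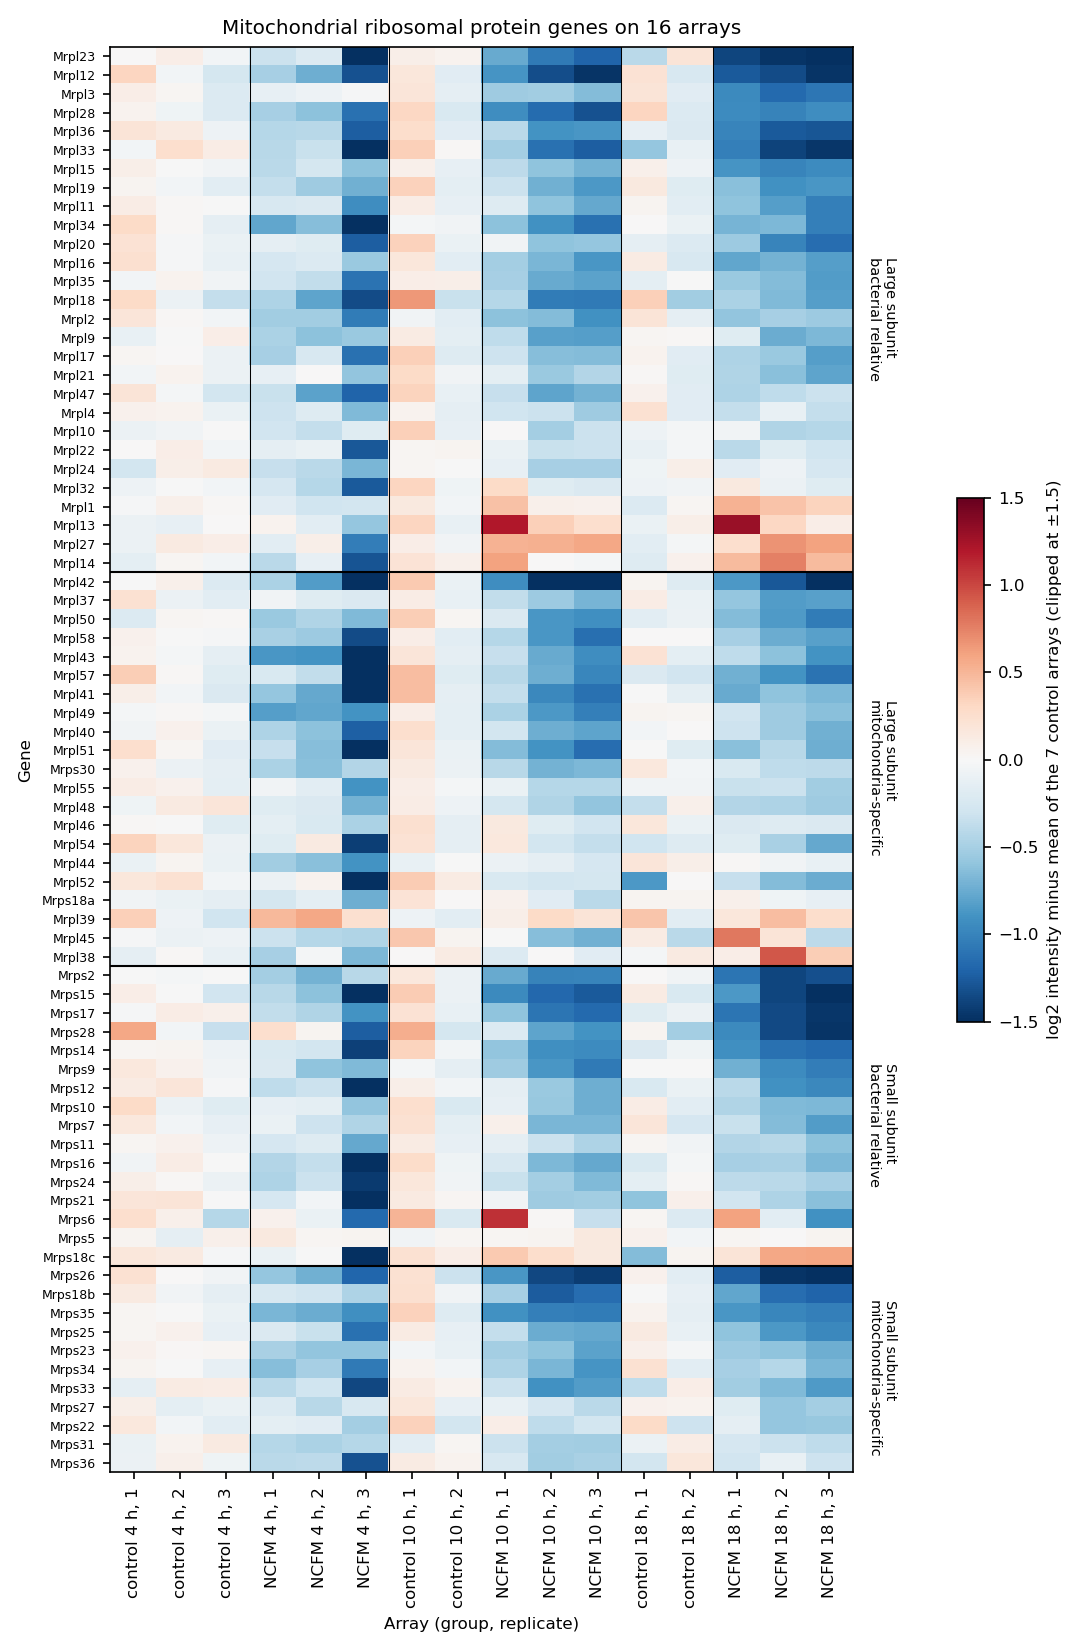
Each row is a member gene and each column an array; colour is the log2 intensity minus the mean of the 7 control arrays (blue lower, red higher, clipped at 1.5 either way), in the 4 classes by subunit and bacterial relationship. Blue prevails on the 9 NCFM arrays in every class, NCFM 4 h replicate 3 is the darkest column, and a few rows such as Mrpl13, Mrpl27 and Mrpl14 turn red at 10 and 18 h.

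How many members were called depended on single arrays. The count at 4 h was 14 without NCFM 4 h replicate 3, and 17 and 13 without control 4 h replicates 1 and 2. At 10 h it was 10 without control 10 h replicate 1 and 48 without NCFM 4 h replicate 3. At 18 h it was 20 and 17 without NCFM 18 h replicates 2 and 3, and 15 and 19 without control 18 h replicates 1 and 2. Of all 18193 genes, 1926 were called lower at 4 h without NCFM 4 h replicate 3. Without control 4 h replicates 1 and 2 this number was 2150 and 1481. At 10 h 3179 genes were lower without NCFM 4 h replicate 3. At 18 h 2221 and 2502 genes were lower without NCFM 18 h replicates 2 and 3. A fit without a control array of 10 or 18 h leaves 1 array in that group. With the array number as a block, 52 members were called lower at 4 h, against 19.3% of all genes, and 3 higher at 18 h. The members' median difference in that fit was -0.55, -0.51 and -0.45 at 4, 10 and 18 h, smaller in size at the later times. At 10 and 18 h the control arrays are numbered 1 and 2 only, while NCFM arrays are numbered 1 to 3. Quantile normalization left 20 lower at 10 h and 19 at 18 h, against 11.9% of all genes at 10 h and 2186 of 18193 at 18 h. When arrays were centred on the median of their 64 control probe sets, 59 were lower at 18 h, but so were 51.2% of all genes. Those probe sets include mouse actin and Gapdh, and so are not spike-in controls alone. Higher at 4, 10 and 18 h were 0, 0 and 1, but 1 at 4 h without control 4 h replicate 1, 1 at 10 h and 4 at 18 h without NCFM 4 h replicate 3, and 0 at 18 h on leaving out control 18 h replicate 1. The direction of the median did not turn in any of these: leaving out each array in turn, it stayed between -0.70 and -0.33 at 4 h, -0.73 and -0.46 at 10 h, and -0.62 and -0.45 at 18 h. Calls that held with each array left out in turn number 13 of 27 at 4 h, 9 of 31 at 10 h and 13 of 32 at 18 h.

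The sequence around listed starts of the members' transcripts was read for motifs known from promoters of nuclear genes for mitochondrial proteins. RefSeq promoter windows of GRCm38.p6, from 250 bases before to 50 after a listed start, were matched by gene ID for 67 of the 76 members. A listed start can lie inside the gene as annotated. On both strands, the NRF1 motif (GCGCA, any base, then GCGC) was in 12 of 67 windows (17.9%, against 5.19% of the windows of all 27025 genes). The ETS motif CCGGAAG, the core bound by GABP, was in 25 (37.3%, against 9.93%). A YY1 motif, AAGATGGCG, was in 8 (11.9%, against 1.64%), and the E-box CACGTG, a site for Myc, was in 5 (7.46%, against 8.09%). Of the 38 members with a window that were called lower at any time, 5 held the NRF1 motif, 9 the ETS motif, 7 the YY1 motif and 3 the E-box. For NRF1 and ETS this is a smaller share than among the 67, for YY1 a larger one and for the E-box about the same. A difference in these shares was not tested. A match is a description of letters, and binding was not measured. The 250 bases before the start are printed for 4 members: Mrpl12 and Mrps26, among the largest called falls at all 3 times, and Mrpl3 and Mrpl1, whose response differed between 4 and 18 h in opposite directions. Capitals mark matches inside the printed stretch on either strand.
Mrpl12, chr11:120484387-120484636, plus strand: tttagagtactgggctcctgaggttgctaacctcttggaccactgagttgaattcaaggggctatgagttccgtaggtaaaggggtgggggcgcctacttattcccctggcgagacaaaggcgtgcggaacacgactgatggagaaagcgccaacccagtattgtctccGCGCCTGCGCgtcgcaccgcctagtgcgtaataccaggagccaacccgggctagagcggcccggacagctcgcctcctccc
Mrps26, chr2:130563507-130563756, plus strand: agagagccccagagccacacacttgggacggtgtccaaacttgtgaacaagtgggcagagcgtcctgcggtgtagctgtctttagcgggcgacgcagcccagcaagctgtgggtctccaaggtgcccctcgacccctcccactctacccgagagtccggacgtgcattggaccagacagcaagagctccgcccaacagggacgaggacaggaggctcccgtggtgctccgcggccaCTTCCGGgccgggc
Mrpl3, chr9:105053018-105053267, plus strand: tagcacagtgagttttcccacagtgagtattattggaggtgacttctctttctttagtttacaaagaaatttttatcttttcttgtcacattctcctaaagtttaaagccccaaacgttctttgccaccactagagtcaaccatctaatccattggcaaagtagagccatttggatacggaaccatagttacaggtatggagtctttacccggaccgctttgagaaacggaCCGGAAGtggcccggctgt
Mrpl1, chr5:96209865-96210114, plus strand: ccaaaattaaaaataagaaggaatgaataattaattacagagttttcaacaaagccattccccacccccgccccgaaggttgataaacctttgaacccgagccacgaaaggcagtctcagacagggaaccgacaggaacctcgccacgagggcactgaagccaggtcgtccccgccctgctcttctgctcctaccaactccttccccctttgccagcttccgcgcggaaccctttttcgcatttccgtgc
In the Mrpl12 stretch the capitals are an NRF1 match at -81 to -72, counted from the start. Mrps26 has an ETS match at -14 to -8, and 2 overlapping NRF1 matches at -2 to 8 and 5 to 14, which run past the printed end and are not in capitals. Mrpl3 has an ETS match at -19 to -13. Mrpl1 has none of the 4 motifs in its window. That window lies inside the annotated gene, which begins at 96209498, so the sequence before the gene's first base was not searched.

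Among large-subunit proteins with a bacterial relative, 10, 12 and 13 of 28 genes were called lower at 4, 10 and 18 h, with median log2 differences of -0.54, -0.60 and -0.57. The count at 4 h was 19 with the array number as a block. Mrpl34 encodes a small protein that packs against the rRNA of the large subunit. Its intensity at 4 h was 670, 737 and 328 with NCFM and 1402, 1166 and 1050 in control cells. All NCFM arrays were below all control arrays, with replicate 3 lowest. The log2 difference of -1.14 (SE 0.25, adjusted p 0.00804 by limma) was the largest called fall at 4 h. At 10 h Mrpl34 read 751, 615 and 528 against 1130 and 1108, and the call (-0.84, SE 0.28, adjusted p 0.0462) was lost in 12 of the 16 fits that leave out 1 array, with adjusted p between 0.0514 and 0.194. At 18 h the values were 710, 721 and 566 against 1155 and 1073, below control on every array, and the difference of -0.75 (SE 0.28) did not pass (adjusted p 0.0735), though it did with the array number as a block (-0.58, adjusted p 0.0312).

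Mrpl12 forms the flexible stalk that draws translation factors to the ribosome. Control intensities were 1625, 1268 and 1080 at 4 h, 1465 and 1155 at 10 h, and 1515 and 1104 at 18 h. With NCFM they were 923, 784 and 526 at 4 h, 703, 519 and 469 at 10 h, and 541, 514 and 468 at 18 h. No NCFM array reached any control array, and the NCFM mean was lower at each later time. The log2 differences were -0.85 (SE 0.23, adjusted p 0.0206), -1.23 (SE 0.25, adjusted p 0.00384) and -1.35 (SE 0.25, adjusted p 0.00217), or 1.8, 2.34 and 2.55 fold. The 4 h call was lost on leaving out NCFM 4 h replicate 3 (adjusted p 0.0769) or control 4 h replicates 1 (0.0772) or 2 (0.056), and the 10 h call on leaving out control 10 h replicate 1 (0.0573). At 18 h it held with each array left out.

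Mrpl28 is the mitochondrial relative of a bacterial protein of the large subunit. It read 836, 720 and 645 with NCFM at 10 h against 1979 and 1367 in control cells, and 828, 798 and 839 at 18 h against 2004 and 1388. The groups were separate at both times. Differences were -1.17 (SE 0.21, adjusted p 0.00156) and -1.02 (SE 0.21, adjusted p 0.00375), both kept with each array left out.

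Mrpl23 lies at the mouth of the tunnel through which the new chain leaves. At 18 h it read 624, 587 and 535 with NCFM against 1228 and 1856 in control cells. The groups were separate, but the 2 control arrays were far apart. The difference of -1.38 (SE 0.39, adjusted p 0.0234), the largest called fall at that time, was lost without NCFM 18 h replicate 2 (adjusted p 0.0574), NCFM 18 h replicate 3 (0.0621) or control 18 h replicate 2 (0.181). At 4 h NCFM replicate 3 read 423 where the other 2 read 1296 and 1414.

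The proteins found only in mitochondria, which coat the outside of the large subunit, gave 7, 8 and 4 calls lower among 21 genes at 4, 10 and 18 h. The 4 called at 18 h are 19.0% of the class, close to the 16.3% of all genes, while 33.3% and 38.1% were called before. Blocking on the array number gave 13 at 4 h and 7 at 18 h. The median differences of the class were -0.63, -0.62 and -0.39. Mrpl43 read 848, 835 and 504 with NCFM at 4 h against 1604, 1519 and 1410 in control cells. No arrays overlapped, and the difference of -1.09 (SE 0.21, adjusted p 0.00411) was kept with each array left out. At 10 h it read 1221, 916 and 809 against 1756 and 1411, and at 18 h 1188, 1009 and 832 against 1794 and 1400. Those differences, -0.70 (adjusted p 0.051) and -0.67 (adjusted p 0.0649), did not pass. Both passed with the array number as a block (-0.56 and -0.53, adjusted p 0.00666 and 0.00983).

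Mrpl41 read 899, 787 and 402 with NCFM at 4 h against 1424, 1308 and 1156 in control cells. Replicate 3 was again far below the others, and all 3 were below control. The difference of -0.97 (SE 0.27, adjusted p 0.0278) was lost without NCFM 4 h replicate 3 (adjusted p 0.0796) or without control 4 h replicates 1 (0.0802), 2 (0.079) or 3 (0.0537).

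Mrpl49, a further protein of the mitochondria-specific class, read 274, 283 and 261 with NCFM at 4 h against 476, 492 and 477 in control cells, and 348, 266 and 239 against 519 and 438 at 10 h. At 18 h it read 396, 335 and 314 against 501 and 497. The groups never overlapped. The differences were -0.82 (SE 0.12, adjusted p 7.01e-04), -0.76 (SE 0.14, adjusted p 0.00176) and -0.53 (SE 0.14, adjusted p 0.0155). The 18 h call was lost without NCFM 18 h replicate 2 (adjusted p 0.0501), NCFM 18 h replicate 3 (0.0545), control 18 h replicate 1 (0.0645) or control 18 h replicate 2 (0.0722).

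Mrpl42 had the largest called fall of any member, at 10 h. It then read 964, 533 and 500 with NCFM against 2415 and 1707 in control cells. NCFM replicate 1 was well above its partners and still below both controls. The difference was -1.68 (SE 0.41, adjusted p 0.0102), or 3.19 fold, and no longer passed when control 10 h replicate 1 was left out (-1.43, adjusted p 0.111). At 4 h Mrpl42 read 1317, 1027 and 434 against 1836, 1930 and 1594 (-1.09, adjusted p 0.0586), and at 18 h 1011, 758 and 627 against 1885 and 1605 (-1.15, adjusted p 0.0607), below control on all arrays but without passing. Both passed with the array number as a block (-1.09 and -0.93, adjusted p 0.00437 and 0.0178).

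In the small subunit, which reads the message, 4, 5 and 6 of 16 genes with a bacterial relative were called lower at 4, 10 and 18 h (medians -0.59, -0.53 and -0.57). Blocking on the array number gave 11 at 4 h. Mrps2, one of the small-subunit proteins with a bacterial relative, had fitted differences that grew in size over the 3 times. Control intensities lay between 633 and 751 at all times. With NCFM it read 470, 409 and 502 at 4 h, 398, 334 and 338 at 10 h, and 314, 259 and 269 at 18 h. No NCFM array overlapped the controls at any time. The differences were -0.54 (SE 0.10, adjusted p 0.00296), -0.96 (SE 0.11, adjusted p 9.96e-05) and -1.24 (SE 0.11, adjusted p 1.77e-05), each kept with each array left out.

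Mrps15 binds the rRNA of the small subunit. It read 935, 801 and 755 with NCFM at 10 h against 2358 and 1707 in control cells, and 993, 695 and 591 at 18 h against 1969 and 1541. The groups were separate. The differences were -1.28 (SE 0.31, adjusted p 0.00934) and -1.23 (SE 0.31, adjusted p 0.012). Neither call was kept without the array numbered 1 of the control at that time, which leaves 1 control array. The differences were then -1.046 and -1.055.

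Mrps17, another rRNA-binding protein, read 464, 388 and 363 with NCFM at 18 h against 880 and 933 in control cells, without overlap. The difference was -1.17 (SE 0.19, adjusted p 8.3e-04). At 10 h it was -1.01 (SE 0.19, adjusted p 0.00208), from 654, 466 and 442 against 1156 and 923, and both calls held with each array left out.

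The mitochondria-specific proteins of the small subunit had the largest share of calls in the 4 classes, with 6, 6 and 8 of 11 genes lower at 4, 10 and 18 h. Their medians were -0.59, -0.62 and -0.57, and a difference between classes was not tested. Mrps26 was among the largest called falls at every time. Control intensities were 1544, 1321 and 1268 at 4 h, 1541 and 1058 at 10 h, and 1382 and 1183 at 18 h. NCFM arrays read 881, 800 and 580 at 4 h, 719, 512 and 490 at 10 h, and 559, 474 and 467 at 18 h. All 9 NCFM arrays lay below all 7 controls. The differences were -0.89 (SE 0.19, adjusted p 0.00697), -1.18 (SE 0.21, adjusted p 0.00188) and -1.36 (SE 0.21, adjusted p 7.59e-04), or 1.85, 2.26 and 2.57 fold, and held with each array left out.

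Mrps35 read 313, 289 and 285 with NCFM at 10 h against 747 and 516 in control cells. NCFM arrays were close together and separate from control. The difference was -1.07 (SE 0.13, adjusted p 1.25e-04). It was -0.76 at 4 h (SE 0.12, adjusted p 8.3e-04) and -0.92 at 18 h (SE 0.13, adjusted p 3.71e-04), and all 3 calls held with each array left out.

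**Figure D2:**
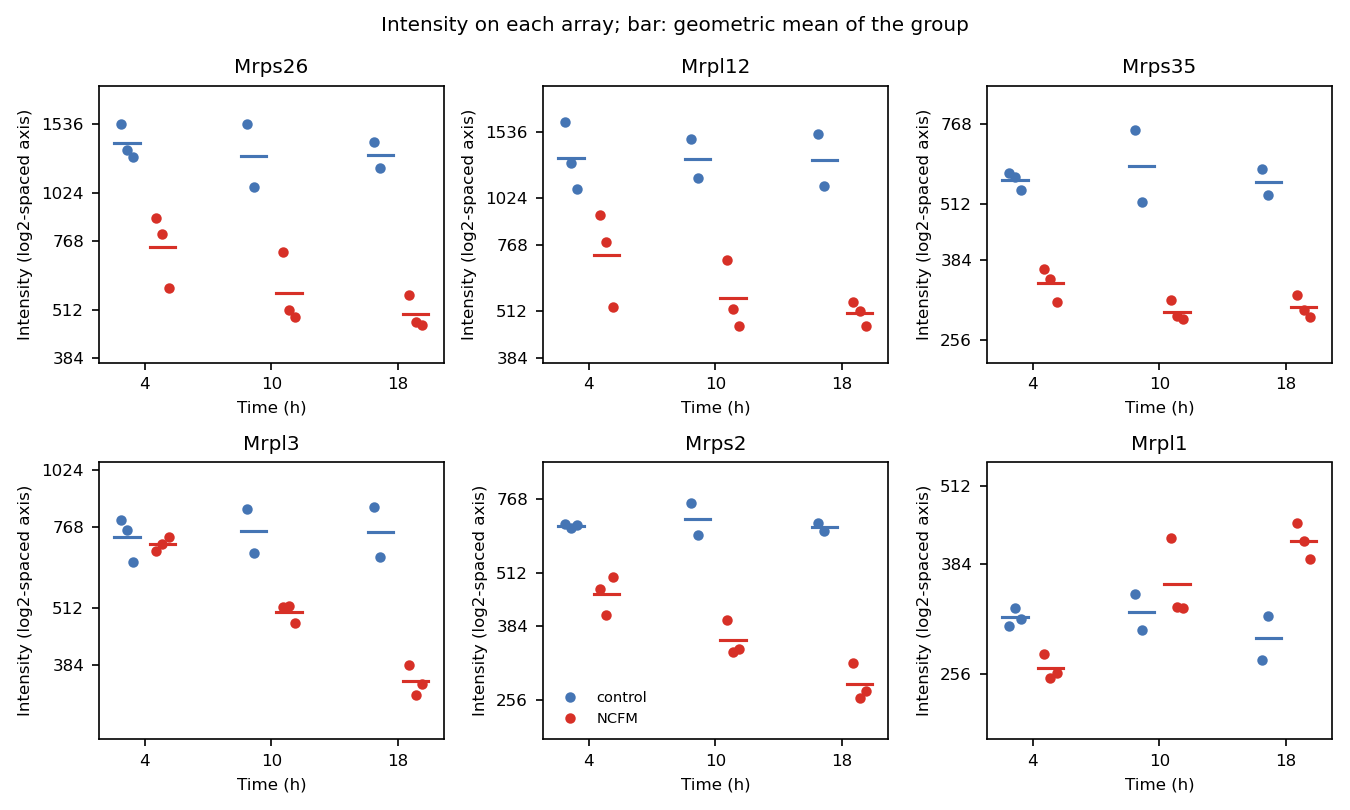
Intensity on each array, on a log2-spaced axis, of 6 members by time, with control in blue and NCFM in red; bars are geometric means of a group. NCFM lies below control throughout for Mrps26, Mrpl12, Mrps35 and Mrps2, Mrpl3 overlaps control at 4 h and falls away later, and Mrpl1 is above control at 18 h.

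Of the 76 genes, 17 were called lower at all 3 times, against 6.76% of all genes, and 42 at any time. Blocking on the array number, 30 were lower at all 3 times, against 10.7% of all genes. The 17 are Mrpl2, Mrpl9, Mrpl12, Mrpl15, Mrpl28, Mrpl35, Mrpl36, Mrpl49, Mrps2, Mrps9, Mrps17, Mrps23, Mrps26, Mrps30, Mrps31, Mrps34 and Mrps35. Lower at 10 and 18 h but not called at 4 h were 8, including Mrpl3, Mrpl37, Mrps15 and Mrps18b. Lower at 4 and 10 h but not called at 18 h were 5: Mrpl34, Mrpl40, Mrpl41, Mrpl47 and Mrpl58, the last a release factor that frees stalled ribosomes. Calls at 4 h alone came from Mrpl24, Mrpl43, Mrpl44, Mrps24 and Mrps36, the last now known as a part of the 2-oxoglutarate dehydrogenase complex. Its 4 h call is nevertheless in the count given above for the mitochondria-specific class of the small subunit. No call was made for 33 members. The fitted differences of the 76 members correlated with Pearson's r of 0.60 between 4 and 10 h, 0.84 between 10 and 18 h and 0.35 between 4 and 18 h. These comparisons share no arrays, but they share probe sets and array numbers, and genes are not independent replicates.

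The response itself differed between 4 and 18 h for 3 members by limma's test of the difference, against 3.4% of all genes. Leaving out control 4 h replicate 2 or control 18 h replicate 1 left 1 of the 3. Mrpl3, a protein of the large subunit's core near the catalytic centre, did not differ from control at 4 h beyond its error. It then read 682, 704 and 731 with NCFM against 796, 758 and 643. With NCFM it read 513, 517 and 473 at 10 h and 383, 330 and 349 at 18 h, while control cells read 840 and 674 at 10 h and 851 and 662 at 18 h. The 4 h arrays overlapped, and the later ones did not. Differences from control were -0.05 (SE 0.11, adjusted p 0.813), -0.59 (SE 0.13, adjusted p 0.00479) and -1.09 (SE 0.13, adjusted p 9.49e-05). The 18 h response was lower than the 4 h response by -1.04 on the log2 scale (SE 0.17, adjusted p 0.0075), a call that held in each of 28 other settings. At 10 h the call rests on control replicate 1, with an adjusted p of 0.0838 when that array is left out.

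Mrps2, with the values above, had a response lower at 18 h than at 4 h by -0.70 (SE 0.15, adjusted p 0.0255). That call was lost in 7 of the 16 fits that leave out 1 array, with adjusted p between 0.0553 and 0.0786. These were the fits without NCFM 4 h replicate 3, NCFM 18 h replicate 2 or 3, control 4 h replicate 2 or 3, and control 18 h replicate 1 or 2.

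Mrpl1, the protein of the mobile stalk at the exit site for tRNA, went the other way. It read 276, 252 and 257 with NCFM at 4 h against 306, 327 and 314 in control cells. At 10 h it read 422, 328 and 326 against 344 and 301, and at 18 h 446, 417 and 391 against 270 and 317. NCFM arrays were all below control at 4 h, overlapped at 10 h and were all above at 18 h. Differences were -0.27 (SE 0.10, adjusted p 0.088), 0.15 (SE 0.11, adjusted p 0.378) and 0.51 (SE 0.11, adjusted p 0.00633). The response was higher at 18 h than at 4 h by 0.78 (SE 0.15, adjusted p 0.0166). Leaving out control 18 h replicate 1 ended the call of the rise at 18 h (adjusted p 0.0653) and that of the difference between times (0.0674), which also ended on leaving out control 4 h replicate 2 (0.0501). The other 2 probe sets of Mrpl1 differed by -0.19 and 0.04 at 18 h, neither called, and averaging the 3 ended both calls.

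No member passed for the difference between 10 and 4 h (0.506% of all genes did) or between 18 and 10 h (0.0055%). At an unadjusted p under 0.05 by limma, 4 members were lower and 3 higher for the first, where 10.5% of all genes passed, and 2 lower and 2 higher for the second, where 7.46% did. These counts are no larger a share of the 76 than of all genes. With the array number as a block, Mrpl44 passed for the first (0.58, adjusted p 0.0214), and 9 members in place of 3 passed between 18 and 4 h. More of all 18193 genes passed in that fit too. For the first difference 175 were higher and 282 lower, and between 18 and 4 h 587 were higher and 1078 lower. The largest differences of the first kind were 0.94 for Mrpl27 (adjusted p 0.28) and 0.90 for Mrps18c (adjusted p 0.68). Mrpl27, near the catalytic centre, read 1881, 2225 and 1022 with NCFM at 4 h, 3023, 3039 and 3128 at 10 h, and 2510, 3350 and 3184 at 18 h, with controls between 1875 and 2309. It was thus above every control at 10 and 18 h without a call (adjusted p 0.143 and 0.0951). Mrps18c read 1562, 1674 and 425 with NCFM at 4 h and 1069 in control 18 h replicate 1, and between 1659 and 2529 on the remaining arrays. The largest difference between 18 and 10 h was 1.02 for Mrpl45 (adjusted p 0.599), which helps to hold the ribosome at the inner membrane. Mrpl45 spread widely at 18 h, with 2599, 1708 and 1144 with NCFM and 1630 and 1134 in control cells.

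**Figure D3:**
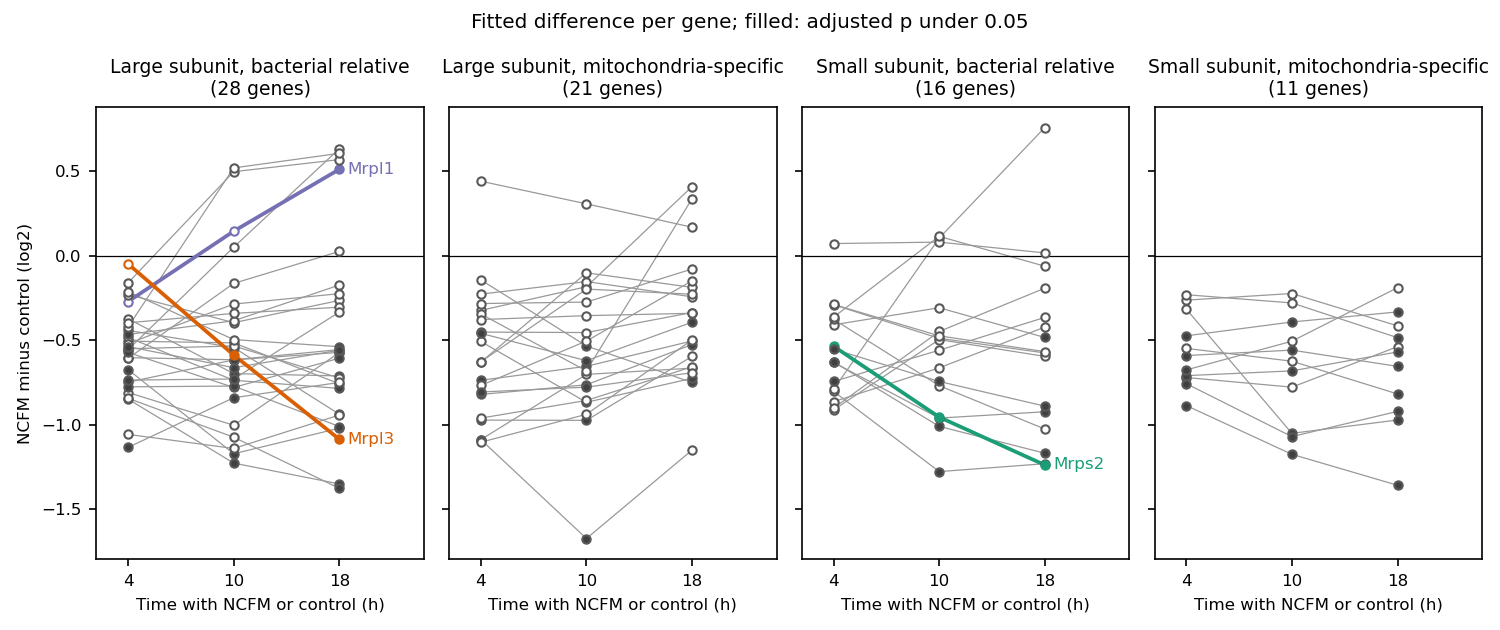
Fitted log2 difference of NCFM and control at 4, 10 and 18 h for each member, in 4 panels by subunit and bacterial relationship, with filled points at adjusted p under 0.05 and lines joining a gene. Most points lie below 0, Mrpl3 and Mrps2 go down from 4 to 18 h, and Mrpl1 is the only filled point above 0.

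No change over time was called in control cells. Neither a member nor any other gene passed limma's test in the 3 contrasts between control times. At an unadjusted p under 0.05, 0 members did, against 3.04%, 3.07% and 3.59% of all genes. The median member difference between control times lay between -0.11 and 0.05. In NCFM cells 3 members were higher at 10 than at 4 h, which were Mrpl1 (0.45), Mrpl44 (0.52) and Mrpl27 (0.92), and Mrpl3 was lower (-0.49), where 6.28% of all genes passed. Between 18 and 4 h 5 rose and 6 fell, against 16.2% of all genes. The rises were Mrpl44 (0.63), Mrpl1 (0.67), Mrpl38 (0.87), Mrpl27 (0.88) and Mrpl14 (1.18), and the falls Mrpl3 (-0.997), Mrps17 (-0.73), Mrps2 (-0.71), Mrps18b (-0.71), Mrpl37 (-0.60) and Mrpl15 (-0.51). Mrpl3 alone passed between 18 and 10 h (-0.50, adjusted p 0.035), where 2.79% of all genes did. Mrpl44, an RNase III-like protein of the large subunit, shows an early dip: it read 925, 863 and 711 at 4 h with NCFM, against 1238, 1370 and 1241 in control cells, and 1114 to 1342 at the later times with NCFM.

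Fitted differences of the chosen probe set were above 0 at all 3 times for Mrpl39 and Mrps5 alone, neither called. For Mrps5 this holds for 1 of its 5 probe sets, which read 279 to 338 over all 16 arrays. Among its other probe sets, 1 was called lower at 10 h (-0.54, adjusted p 0.00975) and 18 h (-0.71, adjusted p 0.00216), and another at 10 h (-0.44, adjusted p 0.0418). Mrpl39 read 3063, 3265 and 2572 with NCFM at 4 h against 2797, 2064 and 1777 in control cells, with overlap (0.44, SE 0.17, adjusted p 0.0981). Its second probe set passed at 4 h among all probe sets tested (0.63, SE 0.18, adjusted p 0.0353). Over all 156 probe sets of members, 42, 53 and 49 were called lower at 4, 10 and 18 h and 1, 0 and 1 higher, with medians of -0.39, -0.42 and -0.33. No gene had probe sets called in opposite directions. Of genes with several probe sets whose main one was called lower, 7 of 16 at 4 h, 12 of 19 at 10 h and 12 of 18 at 18 h had a further probe set called lower.

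Other genes of mitochondrial translation were read from lists, to be set against the 13.1%, 16.5% and 16.3% of all genes called lower at 4, 10 and 18 h. Of 4 mitochondrial ribosomal proteins under other names, 1, 3 and 2 were called lower at 4, 10 and 18 h. They include Ptcd3, a small-subunit protein (-1.05 at 10 h, SE 0.19, adjusted p 0.00198, and -1.19 at 18 h, SE 0.19, adjusted p 9.05e-04), and Dap3, a GTP-binding protein of the same subunit (-0.61 at 10 h, adjusted p 0.00239). Of 23 assembly and rRNA modification factors, 11, 13 and 11 were lower, with medians of -0.35, -0.39 and -0.35. Rbfa, which matures the small subunit, fell by 0.76, 0.97 and 0.75 on the log2 scale (adjusted p 1.5e-05, 5.63e-06 and 3.3e-05). Ngrn, needed for the large rRNA, fell by 1.05 at 4 h (adjusted p 8.6e-05). Of 12 translation factors, 6, 6 and 7 were lower, among them the initiation factor Mtif2 at 4 h (-0.73, adjusted p 0.00383) and the elongation factor Gfm1 at 18 h (-0.72, adjusted p 0.00211). Of 21 genes for charging of mitochondrial tRNA, 8, 12 and 14 were lower, led by Qrsl1, which makes glutaminyl-tRNA (-1.16, -1.31 and -1.33, adjusted p 0.0156, 0.0107 and 0.0106). Kars, which serves both compartments, was higher at 4 h (0.32, adjusted p 0.0368) and lower at 18 h (-0.35, adjusted p 0.0324), and at 10 h it was higher with the array number as a block (0.23, adjusted p 0.0456).

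Among 16 genes for transcription, copying and RNA stability of mitochondrial DNA, 4, 7 and 6 were lower. Tfb2m, a transcription factor of mitochondria, changed by -0.80, -1.56 and -1.01 (adjusted p 0.0106, 2.35e-04 and 0.00414). Lrpprc, which stabilizes mitochondrial messages, was at -0.07 at 4 h (adjusted p 0.651) and fell by 1.10 at 18 h (adjusted p 2.67e-05). Pnpt1, a polynucleotide phosphorylase known as an interferon-inducible gene, rose by 1.77 at 4 h (SE 0.11, adjusted p 1.48e-06), 1.23 at 10 h (adjusted p 2.89e-05) and 0.48 at 18 h (adjusted p 0.0122). Of 14 regulators of mitochondrial biogenesis, 2, 6 and 3 were lower, which is 14.3%, 42.9% and 21.4% and thus near the share of all genes at 4 h and little above it at 18 h. In the blocked fit 4, 6 and 5 were lower. The coactivator Ppargc1b changed by -1.31 at 4 h (SE 0.29, adjusted p 0.00849) and -1.87 at 10 h (SE 0.33, adjusted p 0.00147), but by -0.28 at 18 h (adjusted p 0.589). Gabpa, the ETS factor whose core motif was counted above, fell by 0.63 at 10 h (adjusted p 0.00507) and 0.82 at 18 h (adjusted p 0.0011), and Pprc1 by 0.73 (adjusted p 0.00243) and 0.98 (adjusted p 3.8e-04). Nrf1 was called only at 18 h, where it rose by 0.24 (adjusted p 0.0325), and Myc only at 10 h (-1.47, SE 0.48, adjusted p 0.0423). In the blocked fit Myc also passed at 4 h (-0.94, adjusted p 0.0275) and 18 h (-1.22, adjusted p 0.0132).

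Members were set beside 2 neighbouring gene groups picked by symbol. The first, 47 genes with symbols of cytosolic ribosomal proteins, also takes in Rps19bp1, which is not a ribosomal protein. Of these 47, 2, 12 and 17 were called lower at 4, 10 and 18 h, with medians of -0.45, -0.39 and -0.54. This is 4.26%, 25.5% and 36.2%, below the 13.1% of all genes at 4 h and above the 16.5% and 16.3% at the later times. Of 81 oxidative phosphorylation subunits, 9, 20 and 21 were lower and 1, 2 and 1 higher, with medians of -0.69, -0.58 and -0.35. The share lower was 11.1% at 4 h, also no more than among all genes, and 24.7% and 25.9% later. In the blocked fit 8 and 28 of the 2 groups were lower at 4 h, against 19.3% of all genes. The member medians were -0.55, -0.60 and -0.56, and a difference between the groups was not tested.

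**Figure D4:**
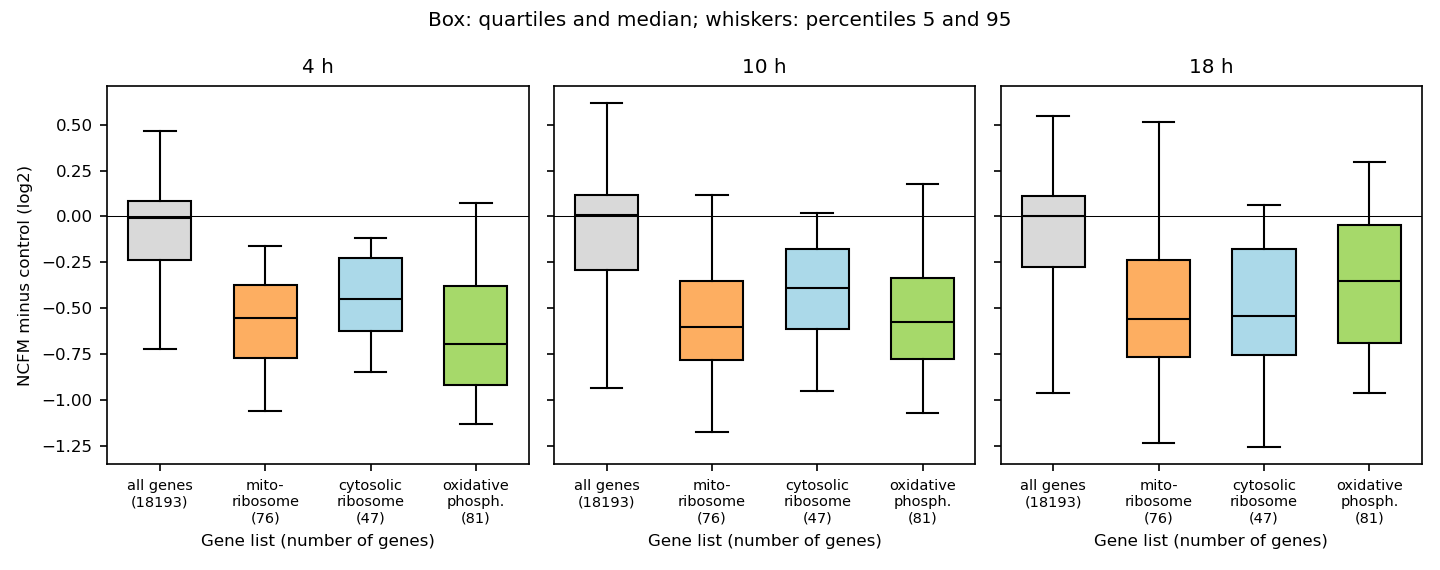
Box plots of the fitted log2 difference of NCFM and control at 4, 10 and 18 h. They cover all genes, the 76 members, 47 genes with symbols of cytosolic ribosomal proteins and 81 oxidative phosphorylation subunits. Boxes are at the quartiles and whiskers at percentiles 5 and 95. The boxes of the 3 ribosomal and respiratory groups lie below 0 at each time, with member medians of -0.55, -0.60 and -0.56.

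The size of the shift varied between arrays of a group. The median of the 76 members relative to the mean of the control arrays was -0.33, -0.34 and -1.04 on the NCFM arrays at 4 h, -0.32, -0.64 and -0.72 at 10 h, and -0.46, -0.60 and -0.74 at 18 h. On control arrays it lay between -0.11 and 0.18. Each NCFM array is thus below each control array. NCFM 4 h replicate 3 was lower than its partners by a median of -0.55 over the members, with 6 of 76 above them, while the median over all genes differed by 0.02. The neutrophil and precursor markers were low on the same array, with a median level of 8.88 on the log2 scale against 10.17 and 10.47 on its partners, and their part in the members' low values was not tested. Without it the 4 h median was -0.33. In every group the array numbered 1 was higher than its partners over the members, by a median of 0.33, 0.39 and 0.23 with NCFM and 0.08, 0.28 and 0.09 in control cells at 4, 10 and 18 h. At 4 h this was not particular to it: NCFM replicate 2 was higher than its partners by a median of 0.30, for 61 of 76 members. Leaving out the arrays numbered 1 leaves 1 control array at 10 h and 1 at 18 h. The members' median difference was then -0.67, -0.58 and -0.56 at 4, 10 and 18 h, against -0.003, -0.009 and 0.003 over all genes.

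Levels of other cell markers are given here beside the members. The median level of 11 proliferation markers (of 12 listed) on the log2 scale lay between 8.93 and 10.53 on control arrays, 8.76 and 9.90 with NCFM at 4 h, 8.42 and 9.01 at 10 h, and 7.83 and 8.40 at 18 h. It was higher on the array numbered 1 in each group. The median difference was -0.38, -1.08 and -1.30 at 4, 10 and 18 h, with Mcm3 called at 18 h. With the array number as a block, Mcm3 was also lower at 10 h (-0.76, adjusted p 0.0274). That fit further called Top2a, Ccnb2, Mcm2, Birc5, Bub1 and Aurkb lower at 10 h. At 18 h it added Top2a, Ccnb2, Cdk1, Mcm2, Mcm5, Birc5 and Aurkb, all lower. Neutrophil and precursor markers (8 of 10) had medians of -0.47, -0.87 and -0.88, with per-array levels of 9.80 to 11.23 in control cells and 8.18 to 10.47 with NCFM. Ltf and Prtn3 were called lower at 10 and 18 h, and Elane at 10 h. Ltf was also lower at 4 h in the blocked fit (-0.56, adjusted p 0.0165). There Mpo was higher at 4 h (0.48, adjusted p 0.0309) and Ngp lower at 18 h (-0.85, adjusted p 0.0317). Macrophage markers (11) had medians of -0.28, -0.50 and -0.56, with Mrc1 lower and Fcgr1 higher at each time. Blocking on the array number, Csf1r was lower at each time, and C1qa, C1qb, C1qc and Cd163 at 10 and 18 h. At 18 h C1qa, C1qb and C1qc stood at -1.94, -1.52 and -1.49 (adjusted p 1.65e-04, 7.91e-05 and 2.27e-04). Mertk (0.52, adjusted p 0.00938) and Cd14 (1.08, adjusted p 0.0208) were higher at 4 h in that fit. Dendritic cell markers (11) had medians of 0.05, -0.01 and -0.20, with Itgax lower at 10 and 18 h and Cd74 at 18 h. Zbtb46 was higher at 10 h in the blocked fit (0.81, adjusted p 0.0103). The log2 ratio of 3′ to 5′ actin probe sets, a sign of RNA quality, was 0.09 to 0.38 on NCFM arrays and 0.09 to 0.63 on control arrays. The part of these in the members' falls was not tested.

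**Figure D5:**
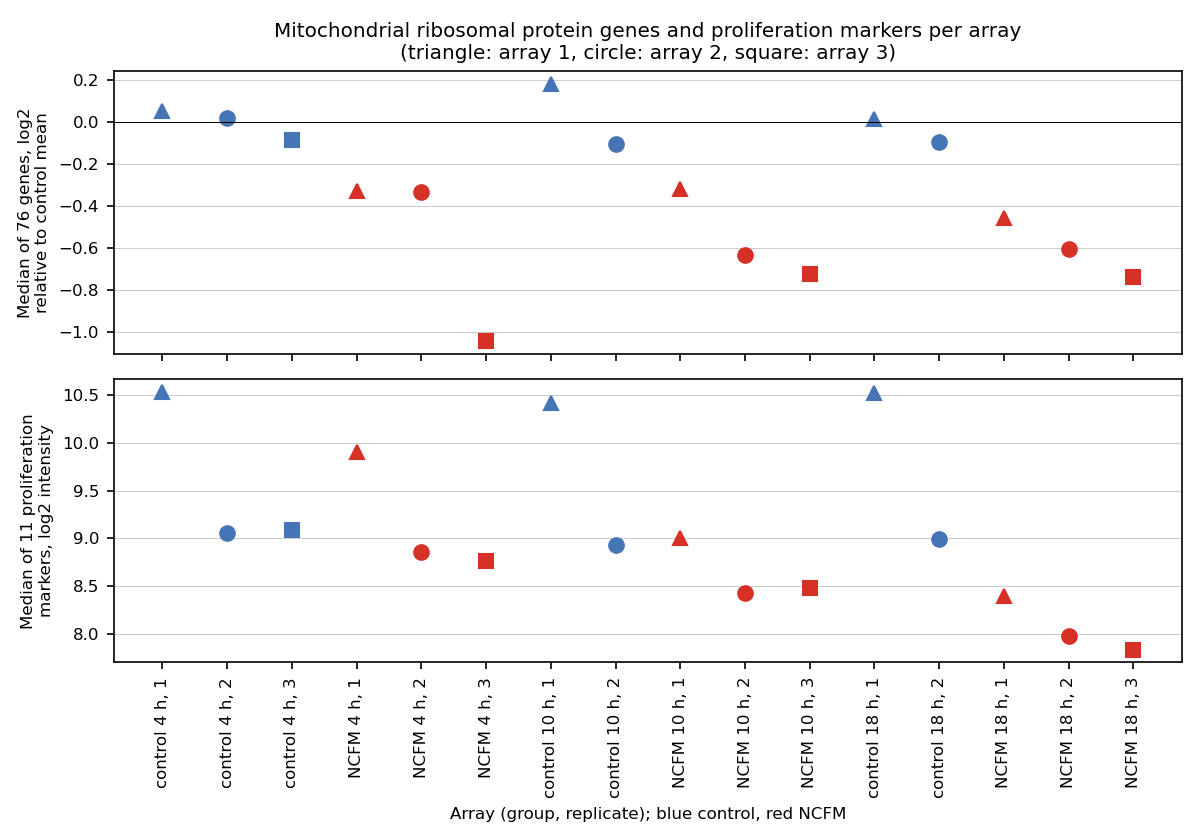
Upper panel: median over the 76 members of the log2 intensity relative to the control mean, per array; lower panel: median log2 intensity of 11 proliferation markers, with control in blue, NCFM in red, and the marker shape giving the array number. All 9 NCFM arrays are below all 7 control arrays in the upper panel, with NCFM 4 h replicate 3 lowest at -1.04, and triangles, the arrays numbered 1, are highest in each group of the lower panel.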

How the data were processed

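The authors deposited 1 intensity per probe set and array. Judged from the values, the scale is linear (42 to 31573) and the arrays were normalized to each other, with medians of 162 to 167. The normalization and summary methods are not given in the sources used here. Intensities were taken to log2 and probe sets named through the platform annotation; 34945 of 45101 name 1 gene. Each gene was fitted with limma 3.58.1 in R 4.3.3 (lmFit and eBayes, a mean per group, no block, 10 residual degrees of freedom). Two-sided p-values were adjusted with the Benjamini-Hochberg method across 18193 genes and called under 0.05.

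Members and gene lists were chosen with earlier results of these data known. Named members are the 6 largest called falls and rises at each time and the 4 largest called differences between times in each direction, or the 2 largest where none was called; up to 4 called genes are named per list and time, and genes beyond the rule were picked after their values were seen.

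Array numbers come from the sample titles. Deviations from group means correlated in all 36 pairs of equal number (0.19 to 0.75, median 0.42). In 70 other pairs the correlation ranged from -0.75 to 0.73 (median -0.32). One alternative fit therefore had the number as a block. Other alternatives were quantile normalization, centring on the arrays' control probe sets, background subtraction, averaged probe sets, removal of dim genes and a robust prior with intensity trend. Array weights, removal of the arrays numbered 1 or of each array in turn, and fits of the compared groups alone were also tried. The last were an adjusted p under 0.01 and, added after the data were seen, probe sets named _s_at or _x_at left out. On simulated data with 18193 genes, changes of 0.5 log2 units were recovered for 58.7%, 51.7% and 51.8% of genes at 4, 10 and 18 h. Of the calls made there, 3.3%, 6.06% and 8.8% were false. The simulation raised 200 genes and gave arrays of equal number no shared deviation, so its shares need not hold for these arrays.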

Additional observations from a re-analysis of the deposited data

Results flagged for a closer look

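The NCFM response of 3 members differed between 4 and 18 h by limma's test of the difference, out of 76, which is about the share among all genes (3.4%). Mrpl3 had a response at 18 h that was -1.04 relative to that at 4 h on the log2 scale, with all 3 NCFM arrays at 18 h below both controls and overlap at 4 h. For Mrps2 the difference was -0.70, with NCFM below control at both times. For Mrpl1 it was 0.78, and all NCFM arrays were below control at 4 h and above control at 18 h, in 1 of its 3 probe sets.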

How the results depend on the processing

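The members' median difference was below 0 at every time under all alternatives tried, and no called member result that was recomputed turned direction. Members without a call were not recomputed one by one. In 300 of 357 comparisons of a summary value with its alternative, the value stayed near the reported one, and for called genes 2356 of 2691 calls were kept and 335 lost. The array number as a replicate block, which the pairing of arrays allows, gave 52 lower at 4 h and 3 higher at 18 h. With it 1 and 9 members had a response differing between 10 and 4 h and between 18 and 4 h. Members lower at all 3 times were 30 in place of 17, against 10.7% of all genes. The remaining counts of members lower or higher at a single time, or differing between times, changed by no more than 1.5 times. Quantile normalization gave 20 lower and 1 higher at 10 h, and 19 lower and 2 higher at 18 h. Centring on the arrays' control probe sets gave 59 lower, 0 higher and a median of -0.94 at 18 h, and 1 member differing between 18 and 4 h. It moved the median of all genes by -0.12 at 10 h and -0.38 at 18 h, and relative to that the members' median at 18 h was -0.56. Averaging the probe sets of a gene gave 1 higher at 4 h, 0 higher at 18 h and 1 differing between 18 and 4 h. Array weights gave 42 lower and 1 higher at 4 h, and 2 and 5 differing between 10 and 4 h and 18 and 4 h. Of all 18193 genes, 3826 were lower and 1845 higher at 4 h with these weights. Without the arrays numbered 1 there was 1 higher at 4 h, and 1 and 5 differed. An adjusted p under 0.01 left 13, 17 and 15 lower at 4, 10 and 18 h and 1 differing between 18 and 4 h. Of all 18193 genes, 1171, 1836 and 1795 were lower at that threshold. The groups compared alone gave 1 higher at 10 h and 2 at 18 h. Leaving out each array in turn, members lower numbered 13 to 38 at 4 h, 10 to 48 at 10 h and 15 to 44 at 18 h, members higher 0 to 1, 0 to 1 and 0 to 4, and those differing between 10 and 4 h 0 to 1 and between 18 and 4 h 1 to 4. The median lay between -0.70 and -0.33, -0.73 and -0.46, and -0.62 and -0.45. The cause of these changes was not tested. Groups of 2 or 3 arrays limit what can be called.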
